A study of Litchi chinensis with 18 samples.

Results

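LcMADS46, LcMADS47 and LcMADS93 are the MIKC* MADS-box genes of litchi described here, and they were taken by name as 3 of the 37401 gene models of the deposited table. They are given with the sum of LcMADS46 and LcMADS47, because the coding sequences of this pair share long stretches. The values come from RNA-seq of 'Feizixiao' litchi flowers at full bloom, in which stamens and carpels of 3 flower types were sampled apart. M-stamen and M-carpel came from functionally male flowers whose rudimentary pistil was not obvious, m-stamen and m-carpel from functionally male flowers with an obvious rudimentary pistil, and F-stamen and F-carpel from functionally female flowers whose stamens were rudimentary and did not open. Each of the 6 organs had 3 libraries. The paper sampled in triplicate from differently facing sides of the tree, without saying how the sides relate to the libraries. Nothing says that the libraries came from separate trees, so p-values measure the spread between these samples. Male and female organs came from the same cultivar and no group was treated.

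MADS-box proteins are DNA-binding regulators, and those of the MIKC* type differ from the better known floral organ identity proteins in the region that joins the MADS domain to the K domain. In Arabidopsis, MIKC* proteins act in maturing pollen and in the pollen tube, where a protein of one clade (AGL66, AGL104) binds DNA as a dimer with a protein of the other clade (AGL30, AGL65, AGL94). LcMADS46 and LcMADS47 are annotated as AGL104 and LcMADS93 as AGL30, so that the members described here cover both partners of that dimer. No litchi protein was assayed in these data.

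LcMADS46 (LITCHI010419.m1.gene) lay on chromosome 8 from 4732998 to 4737970, LcMADS47 (LITCHI010424.m1.gene) on chromosome 8 from 4797467 to 4802448, and LcMADS93 (LITCHI005193.m1.gene) on chromosome 14 from 7585841 to 7590790, in a genome build not given in the sources used here. LcMADS46 and LcMADS47 were near neighbours, with 4 gene numbers between them. The coding starts are shown because they decide how far reads of both copies can be told apart. The first 180 coding bases, which hold the MADS box, were identical in both copies, and LcMADS93 matched them at 108 of 180 bases (60%). Capitals in LcMADS93 mark the bases that differ.
LcMADS46 and LcMADS47: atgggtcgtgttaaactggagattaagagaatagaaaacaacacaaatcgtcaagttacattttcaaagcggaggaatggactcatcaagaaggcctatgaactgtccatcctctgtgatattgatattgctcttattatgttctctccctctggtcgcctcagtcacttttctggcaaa
LcMADS93: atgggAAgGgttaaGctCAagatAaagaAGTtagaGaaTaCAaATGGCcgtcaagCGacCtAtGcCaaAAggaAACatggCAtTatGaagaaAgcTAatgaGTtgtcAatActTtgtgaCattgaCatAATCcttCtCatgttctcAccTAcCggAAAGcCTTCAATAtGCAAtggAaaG
LcMADS93 was closer to LcMADS74, annotated AGL65 in the study's gene list, with 134 of 180 bases identical (74.4%).

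Both AGL104-annotated copies stayed identical over their first 272 coding bases, and the first difference was T273C, with the LcMADS46 base given first and positions counted from 1 at the A of the ATG. The next stretch is shown because it holds the clearest mark between the copies: 90 bases of LcMADS46, in capitals, had no counterpart in the coding sequence listed for LcMADS47.
LcMADS46 from base 241 to 399: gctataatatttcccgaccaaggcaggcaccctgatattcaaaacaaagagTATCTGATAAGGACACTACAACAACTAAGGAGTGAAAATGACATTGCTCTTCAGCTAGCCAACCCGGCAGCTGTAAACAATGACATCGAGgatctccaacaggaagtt
LcMADS47 from base 241 to 309: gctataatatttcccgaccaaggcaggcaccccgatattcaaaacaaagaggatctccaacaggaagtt
Across the 399 coding bases at hand, 223 of the 350 stretches of 50 bases in LcMADS46 also occurred in LcMADS47, and none occurred in another of the 94 genes with a listed sequence. LcMADS93 shared no such stretch with any of them. The counts of LcMADS46 and LcMADS47 taken singly are therefore uncertain, since reads that fit both copies may have been split or dropped, and their sum was tested beside them. The sum does not restore dropped reads.

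The libraries held 25689398 to 32302522 gene counts (median 29945742), and a count of 0 allows at most 0.117 CPM (counts scaled to library size) in the smallest library, for counting error only. The organ labels were checked on reference genes. LcMADS50 (LcPI), a petal and stamen identity gene of the PISTILLATA type, averaged 643 ± 28.7, 374 ± 13.2 and 409 ± 3.16 FPKM (read fragments scaled to transcript length and library size; SD, n = 3 each) in M-stamen, m-stamen and F-stamen, against 76.7 ± 1.99, 4.01 ± 0.498 and 2.61 ± 0.861 FPKM in M-carpel, m-carpel and F-carpel. LcMADS51 (LcSTK), an ovule identity gene of the SEEDSTICK type, averaged at most 0.743 FPKM in a stamen organ, against 1.12 ± 0.328 FPKM in M-carpel, 7.85 ± 0.321 FPKM in m-carpel and 32.9 ± 2.05 FPKM in F-carpel. The LcPI level of M-carpel, m-carpel and F-carpel was 11.9%, 1.07% and 0.637% of that in the stamens of the same flower type. LcMADS75 (LcAP3-1), the other gene of the stamen identity list, did not set M-carpel apart, with 20.1%, 17.5% and 35.99% in the same order. The 4 genes of the carpel and ovule list summed to 72.2 to 74.5, 36.4 to 40.6 and 39.9 to 45.5 FPKM in M-stamen, m-stamen and F-stamen, against 99.8 to 121, 72.1 to 74.2 and 70.8 to 74.2 FPKM in M-carpel, m-carpel and F-carpel, and its CRABS CLAW gene was highest in M-stamen (56.2 ± 1.81 FPKM).

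All 3 members were stamen genes in every flower type, with the same order of levels: m-stamen highest, then F-stamen, then M-stamen, and the carpels far below. LcMADS46 had 14.5, 15.5 and 14.6 FPKM in M-stamen, 43.3, 47.1 and 44.4 FPKM in m-stamen, and 24.6, 29.0 and 23.3 FPKM in F-stamen, against 0.701, 1.00 and 0.481 FPKM in M-carpel, 0.0845, 0.130 and 0.294 FPKM in m-carpel, and 0, 0.0879 and 0 FPKM in F-carpel. No stamen organ overlapped another, though how many of all genes behave this way was not counted. The single F-carpel library above 0 held 4 counts. LcMADS47 had 18.3, 18.9 and 22.8 FPKM in M-stamen, 50.6, 54.1 and 52.8 FPKM in m-stamen, and 27.9, 30.2 and 31.1 FPKM in F-stamen, against 0.686, 0.639 and 0.812 FPKM in M-carpel, 0.303, 0.275 and 1.15 FPKM in m-carpel, and 0.309, 0.0815 and 0.113 FPKM in F-carpel. Its stamen organs did not overlap either, and m-carpel replicate 3, with 45 counts against 14 and 12 in replicates 1 and 2, stood above all other carpel libraries.

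LcMADS93 had 12.6, 16.3 and 14.3 FPKM in M-stamen, 45.4, 46.6 and 46.9 FPKM in m-stamen, and 25.2, 26.6 and 26.5 FPKM in F-stamen, against 1.88, 1.30 and 2.09 FPKM in M-carpel, 1.69, 1.88 and 1.61 FPKM in m-carpel, and 1.53, 1.98 and 1.36 FPKM in F-carpel. In stamens its level per length was close to that of LcMADS46, whose FPKM may lack reads shared with LcMADS47. In carpels LcMADS93 kept a low level of 69 to 117 counts in each of the 9 libraries, and the 3 carpel organs overlapped. Whether a lower level reflects fewer cells of a type or less RNA per cell cannot be told apart in such bulk samples.

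**Figure D1:**
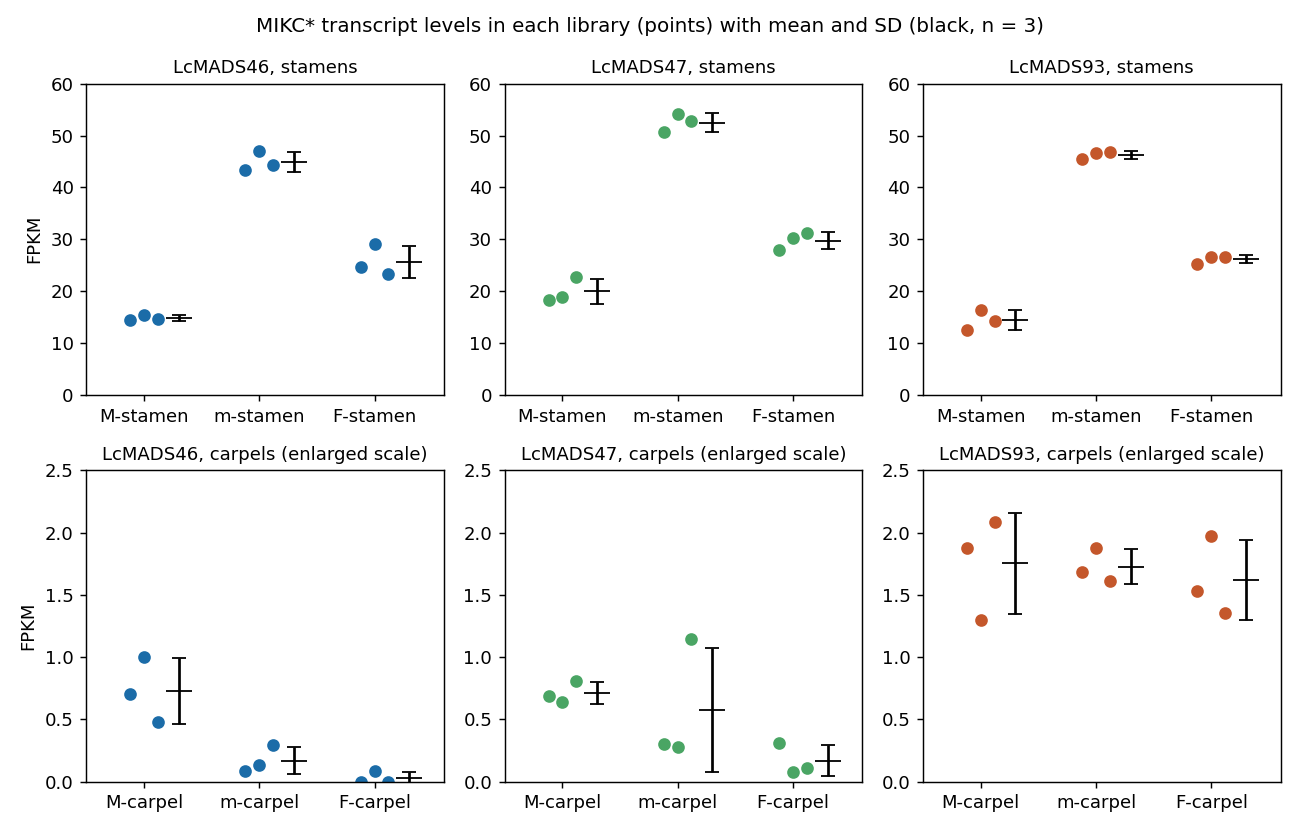
FPKM of LcMADS46, LcMADS47 and LcMADS93 (columns) in the 3 libraries of each stamen organ (upper row) and, on an enlarged scale, each carpel organ (lower row); points are libraries and black marks the mean with SD. In all 3 genes m-stamen lies highest (means 44.9, 52.5 and 46.3 FPKM), and only LcMADS93 stays above 1 FPKM in every carpel library.

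Differences were tested on the counts with edgeR, and a gene was called when its adjusted p was under 0.01 and its log2 fold change was 1 or more in size. Comparisons that name the same organ share its libraries and are not independent of each other. Within each flower type, all 3 members had called differences towards the stamen. The paper had already named them for a possible role in stamen development, in part from their levels in these organs. Calls of stamen against carpel are thus a description and no independent support. In M flowers, where 13.5% of the 27247 genes tested were called higher in stamen, the log2 fold change was 4.36 (standard error 0.41) for LcMADS46, 4.83 (0.42) for LcMADS47 and 3.09 (0.16) for LcMADS93, and 4.61 (0.35) for the sum of the copies. In m flowers, where 21.0% of genes were called higher in stamen, it was 8.19 (0.49) for LcMADS46, 6.74 (0.46) for LcMADS47, 4.99 (0.17) for LcMADS93 and 7.27 (0.40) for the sum. In F flowers, where 18.9% of genes were called higher in stamen, it was 9.76 (0.58) for LcMADS46, 7.49 (0.49) for LcMADS47, 4.12 (0.17) for LcMADS93 and 8.20 (0.44) for the sum. Adjusted p-values ranged up to 2.8e-07 in these comparisons. The large value of LcMADS46 in F flowers rests on the 4 counts it had in F-carpel, all in replicate 2, and without that library no fold against F-carpel could be fixed. Over all stamen organs against all carpel organs, where 18.5% of genes were called higher in stamens, the log2 fold change was 7.44 (0.29) for LcMADS46, 6.35 (0.26) for LcMADS47, 4.07 (0.10) for LcMADS93 and 6.69 (0.23) for the sum.

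Between the stamens of the 2 male flower types, the members differed by more than the spread between libraries. All 3 members were called lower in M-stamen than in m-stamen, by log2 fold changes of -1.84 (standard error 0.35) for LcMADS46, -1.64 (0.35) for LcMADS47 and -1.93 (0.15) for LcMADS93, with edgeR adjusted p of 0.00062, 0.0016 and 7.4e-08. In that direction 5.57% of all genes tested were called. The sum of LcMADS46 and LcMADS47 averaged 34.8 ± 2.30 FPKM in M-stamen and 97.4 ± 3.63 FPKM in m-stamen (SD, n = 3 each), a log2 fold change of -1.73 (0.30).

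Against the rudimentary stamens of female flowers, mean levels were higher in m-stamen and lower in M-stamen, and only part of these differences passed. LcMADS93 was called higher in m-stamen than in F-stamen (log2 fold change 1.18, standard error 0.14, edgeR adjusted p = 6.3e-06), as was the sum of the copies (1.17, 0.29, adjusted p = 0.0038), although with 1 library left out the sum was called in 1 of 6 fits (adjusted p 0.0069 to 0.015). LcMADS46 and LcMADS47 alone reached 1.16 (0.34) and 1.18 (0.35) and missed the threshold, each with an adjusted p of 0.011. One member of 3 was thus called, where 8.31% of all genes were called higher in m-stamen, and DESeq2 called 3 and limma on FPKM none. In M-stamen against F-stamen no member was called lower, where 7.91% of all genes were. LcMADS93 stood at -0.75 (standard error 0.14, edgeR adjusted p = 0.00058), under the size asked for. LcMADS46 (-0.67, 0.34, adjusted p = 0.12) and LcMADS47 (-0.46, 0.34, adjusted p = 0.30) did not pass, and at an unadjusted p under 0.05 LcMADS93 alone was left. DESeq2 and limma on FPKM called no member either, but for LcMADS46 they gave adjusted p of 9.7e-08 and 3.7e-05 and failed on the size of the change alone, as did limma for LcMADS47 (adjusted p = 0.0075). The median of all genes tested stood at -0.17 in this comparison, and at -0.13 with DESeq2's size factors.

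**Figure D2:**
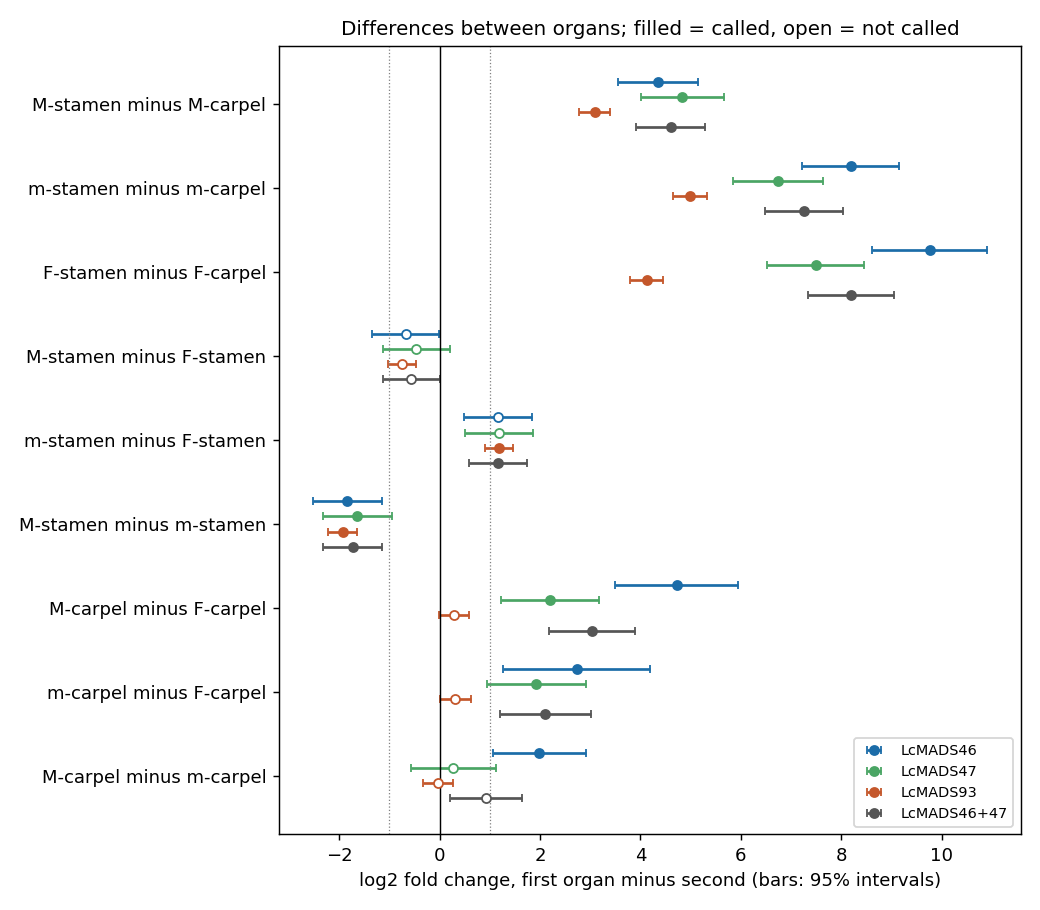
Log2 fold change (x axis, first organ minus second) of LcMADS46, LcMADS47, LcMADS93 and the sum of the first pair in 9 comparisons between organs. Bars are approximate 95% intervals, 1.96 standard errors to either side, and can exclude 0 where the edgeR test did not pass. Filled points were called, open points were not, and dotted lines mark a log2 fold change of 1 in either direction. The stamen against carpel values run from 3.09 to 9.76, and LcMADS93 lies near 0 in all 3 comparisons between carpels.

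Between carpels, LcMADS93 did not pass in any comparison, whereas both AGL104-annotated copies were higher in the carpels of male flowers. In M-carpel against F-carpel, LcMADS46 (log2 fold change 4.73, standard error 0.63, edgeR adjusted p = 1.0e-05) and LcMADS47 (2.198, 0.50, adjusted p = 0.0014) were called higher, 2 of 3 members where 14.7% of all genes were called higher. LcMADS93 had 0.29 (0.16, adjusted p = 0.13). In m-carpel against F-carpel, LcMADS46 (2.74, 0.75, adjusted p = 0.0051) and LcMADS47 (1.93, 0.50, adjusted p = 0.0038) were again called higher, where 16.0% of all genes were, and LcMADS93 had 0.32 (0.15, adjusted p = 0.091). Without m-carpel replicate 3, or without F-carpel replicate 3, neither copy was called, and LcMADS47 had 0.95 without m-carpel replicate 3. In M-carpel against m-carpel, LcMADS46 was called higher (1.99, 0.47, adjusted p = 0.0033), 1 of 3 members where 8.58% of all genes were called higher. LcMADS47 (0.27, 0.43, adjusted p = 0.68) and LcMADS93 (-0.03, 0.15, adjusted p = 0.94) did not pass, and without m-carpel replicate 3, 2 members were called (LcMADS47 at 1.24), whereas without M-carpel replicate 2, m-carpel replicate 1 or m-carpel replicate 2 none was. Limma on FPKM called no member in any of these carpel comparisons. These comparisons rest on few reads, 91, 24 and 4 counts of LcMADS46 and 83, 71 and 23 counts of LcMADS47 summed over the 3 libraries of M-carpel, m-carpel and F-carpel.

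The residual level in M-carpel can be set beside that of the stamen genes. M-carpel had 4.91% of the M-stamen FPKM for LcMADS46, 3.56% for LcMADS47 and 12.2% for LcMADS93, beside 11.9% for LcPI and 20.1% for LcAP3-1. In m flowers, carpels had 0.377% of the stamen level for LcMADS46, 1.10% for LcMADS47 and 3.73% for LcMADS93, and in F flowers 0.114%, 0.566% and 6.20%. LcAP3-1 had 17.5% in m flowers and 35.99% in F flowers. The transfer of stamen tissue or RNA into carpel samples was not tested.

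The difference between stamen and carpel was itself smaller in M flowers. Taken as the log2 fold change of M flowers minus that of F flowers, it was -5.40 (standard error 0.73) for LcMADS46, -2.66 (0.60) for LcMADS47 and -1.03 (0.21) for LcMADS93, and all 3 were called, where 13.7% of all genes were called below 0. The value of LcMADS93 lay at the fold threshold and was not called by DESeq2 (-0.97). Without F-carpel replicate 3, 1 member was called. M flowers minus m flowers gave -3.83 (0.58) for LcMADS46 and -1.90 (0.21) for LcMADS93, which were called, and -1.91 (0.55, adjusted p = 0.014) for LcMADS47, which was not; 8.97% of all genes were called below 0. In m flowers minus F flowers no member was called, where 14.7% of all genes were called above 0: LcMADS93 had 0.86 (0.21, adjusted p = 0.0029), LcMADS46 -1.57 (0.83) and LcMADS47 -0.75 (0.60). At an unadjusted p under 0.05 LcMADS93 alone was left there, and DESeq2 and limma called none.

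The balance of the members was compared within libraries. LcMADS46 made up 45.9%, 46.7% and 40.7% of the summed counts of both copies in M-stamen, 47.8%, 48.2% and 47.4% in m-stamen, and 48.6%, 50.7% and 44.5% in F-stamen. The organ means differed by at most 3.49 percentage points. Their variance did not pass an exact permutation test over the 9 stamen libraries (1680 assignments, p = 0.28, adjusted p = 0.28 over 2 tests). LcMADS93 had 0.383, 0.475 and 0.384 times the summed FPKM of LcMADS46 and LcMADS47 in M-stamen, 0.483, 0.460 and 0.483 times in m-stamen, and 0.482, 0.450 and 0.487 times in F-stamen. If reads shared by the copies were dropped, the sum is too low and ratios to it are too high in stamens and carpels. On the log2 scale the stamen means differed by at most 0.21, which did not pass the exact permutation test either (p = 0.10, adjusted p = 0.20), although without M-stamen replicate 2 the difference was 0.31 and passed at 0.05. The smallest p these tests allow is 0.0036.

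In carpels that balance was shifted towards LcMADS93, though in M-carpel replicate 2 LcMADS93 still had 0.793 times the sum. The sum held only 53 to 66 counts in an M-carpel library, 18 to 58 in m-carpel and 5 to 14 in F-carpel. The log2 ratio of LcMADS93 to the sum averaged -1.14 ± 0.14 over the 9 stamen libraries (range -1.39 to -1.04) and 1.64 ± 1.45 over the 9 carpel libraries (range -0.33 to 3.58), and the 2 sets did not overlap. The difference of the means was -2.78. It was noticed in these values and is given as a description. A permutation test was run on it only afterwards and is not used as support. Organ means of the log2 ratio were 0.26 ± 0.53 in M-carpel, 1.50 ± 1.16 in m-carpel and 3.14 ± 0.73 in F-carpel (SD, n = 3 each).

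**Figure D3:**
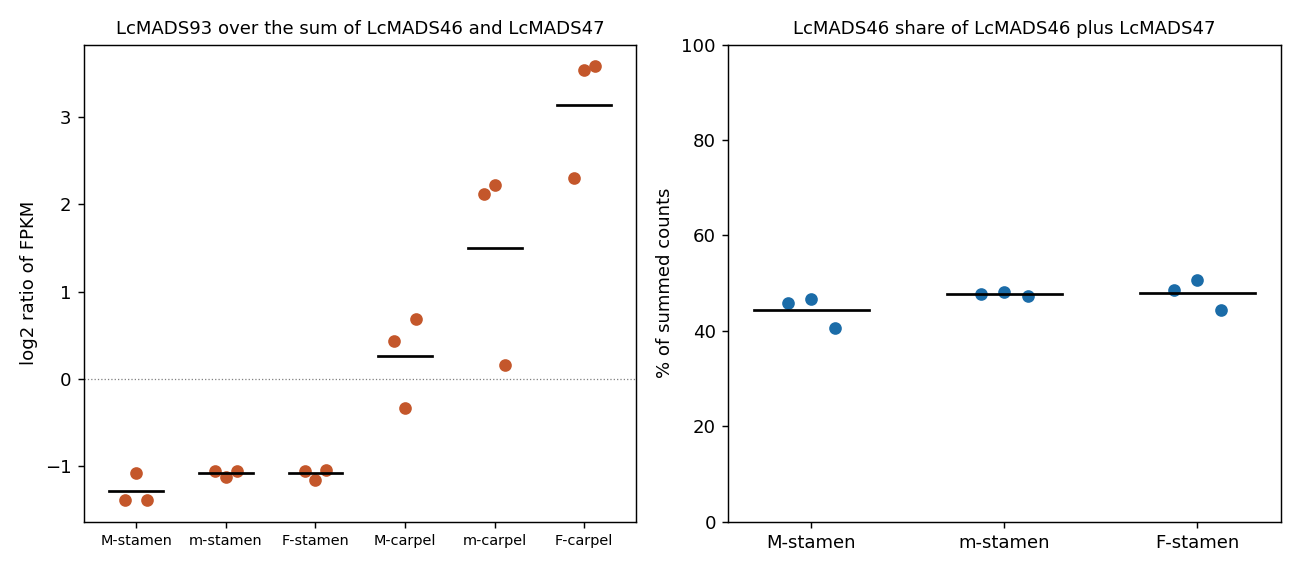
Left, log2 ratio of LcMADS93 FPKM to the summed FPKM of LcMADS46 and LcMADS47 in the 18 libraries; right, LcMADS46 as a percentage of the summed counts of both copies in the 9 stamen libraries; points are libraries and lines are organ means. Stamen ratios lie between -1.39 and -1.04, carpel ratios between -0.33 and 3.58, and the LcMADS46 share lies between 40.7% and 50.7%.

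Besides the 3 members, 10 MIKC* genes were among the 94 genes with a listed name and sequence, and these 10 were mostly silent in these organs. The set is not complete, since the paper counts more MIKC* genes than were listed here, and any gene left out was not examined. LcMADS3, LcMADS84 and LcMADS86 had 0 counts in all 18 libraries, and LcMADS4, LcMADS5, LcMADS27, LcMADS36 and LcMADS87 had 21, 13, 36, 44 and 2 counts over all libraries. LcMADS74, annotated AGL65 in the study's gene list and with more counts than the other 9, had 7.41 ± 0.657, 21.3 ± 0.334 and 10.8 ± 1.04 FPKM in M-stamen, m-stamen and F-stamen, against 4.56 ± 0.424, 7.22 ± 0.609 and 5.47 ± 0.649 FPKM in M-carpel, m-carpel and F-carpel. It was called lower in M-stamen than in m-stamen (log2 fold change -1.76, standard error 0.09) and higher in m-stamen than in F-stamen (1.33, 0.09), the stamen order of the 3 members with a much higher carpel level. The deposited table annotates the LcMADS74 row as a chlorophyll a-b binding protein, so that its counts may cover more than the MADS gene. LcMADS78, annotated AGL104, averaged 0.519 ± 0.111 FPKM in M-stamen and 1.42 ± 0.127 FPKM in M-carpel, a difference that did not pass (edgeR adjusted p = 0.23), and had 0 counts in the 3 F-carpel libraries. Against F-carpel it was called higher in M-carpel, m-carpel and F-stamen (edgeR adjusted p = 0.00021, 0.0025 and 0.0030). These organs held 116, 24 and 23 counts, so no fold against the 0 of F-carpel could be fixed.

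Of 5 MADS genes outside MIKC* listed for the names of the Arabidopsis pollen genes AGL18 and AGL29, 2 were tested, and neither was called between stamen organs. LcMADS42, annotated AGL18, averaged 47.6 ± 1.98 FPKM in M-stamen, 29.1 ± 2.88 FPKM in m-stamen and 45.6 ± 1.42 FPKM in F-stamen. LcMADS37, annotated AGL29, averaged 0.930 ± 0.633, 2.14 ± 0.559 and 1.06 ± 0.980 FPKM in the same organs, with wide spread. LcMADS60, LcMADS62 and LcMADS88 had 46, 1 and 7 counts over all libraries and were not tested, and the deposited table annotates LcMADS88 as AGL61.

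Genes of mature pollen were read beside the members from a list chosen by annotation, 33 genes of which 29 were tested. Their summed level was 1473 to 1644 FPKM in M-stamen, 3796 to 3847 FPKM in m-stamen and 2883 to 3142 FPKM in F-stamen, against 297 to 330 FPKM in M-carpel, 326 to 335 FPKM in m-carpel and 200 to 211 FPKM in F-carpel. In M-stamen against m-stamen, 17 of the 29 were called lower and 0 higher, with a median log2 fold change of -1.38, where all genes tested had a median of 0. In m-stamen against F-stamen 9 were called higher and 1 lower (median 0.77, all genes -0.10), and in M-stamen against F-stamen 10 were called lower and 2 higher (median -0.88, all genes -0.17). The shares of all genes called lower, higher and lower in these comparisons, in that order, were 5.57%, 8.31% and 7.91%. Shares of all genes in the opposite directions are not given here. The order m-stamen, F-stamen, M-stamen of the members was found in 20 of the 29 genes (69.0%), beside 10.3% of all genes tested. One LAT52-annotated gene, LITCHI008127.m1, was at 0 in every carpel library but held only 146 counts over all libraries. Its stamen against carpel difference was not called in any flower type (edgeR adjusted p of 0.185, 0.105 and 0.116 in M, m and F flowers). Other orders occurred too. A DUO1-annotated gene, LITCHI002202.m1, had 4.53, 4.20 and 11.1 FPKM in M-stamen, m-stamen and F-stamen. HAPLESS 2-annotated LITCHI022965.m1 had 15.5, 14.15 and 28.5 FPKM, and LITCHI008954.m1, 1 of the MYB101-annotated genes, had 28.5, 25.1 and 12.6 FPKM. Most but not all pollen genes of the list thus shared the members' order, and their part in the members' differences was not tested.

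The most abundant pollen genes followed that order. LITCHI013059.m1, annotated LAT52, a tomato protein of the anther and pollen, averaged 653 ± 51.7, 1385 ± 36.1 and 1299 ± 87.9 FPKM in M-stamen, m-stamen and F-stamen, and LITCHI012895.m1, also annotated LAT52, averaged 333 ± 32.4, 731 ± 28.9 and 534 ± 28.3 FPKM. LITCHI001696.m1, annotated as a pollen-specific extensin-like protein, averaged 96.8 ± 5.75, 362 ± 11.7 and 241 ± 9.09 FPKM, and LITCHI016486.m1, annotated as pollen receptor-like kinase 1, 60.7 ± 3.08, 259 ± 1.57 and 164 ± 8.36 FPKM. The mean FPKM of m-stamen was 3.03, 2.63 and 3.21 times that of M-stamen for LcMADS46, LcMADS47 and LcMADS93. LcPI and LcAP3-1 had m-stamen at 58.1% and 66.9% of the M-stamen level, and neither was called between these stamens (log2 fold change of M-stamen minus m-stamen 0.54 and 0.34).

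**Figure D4:**
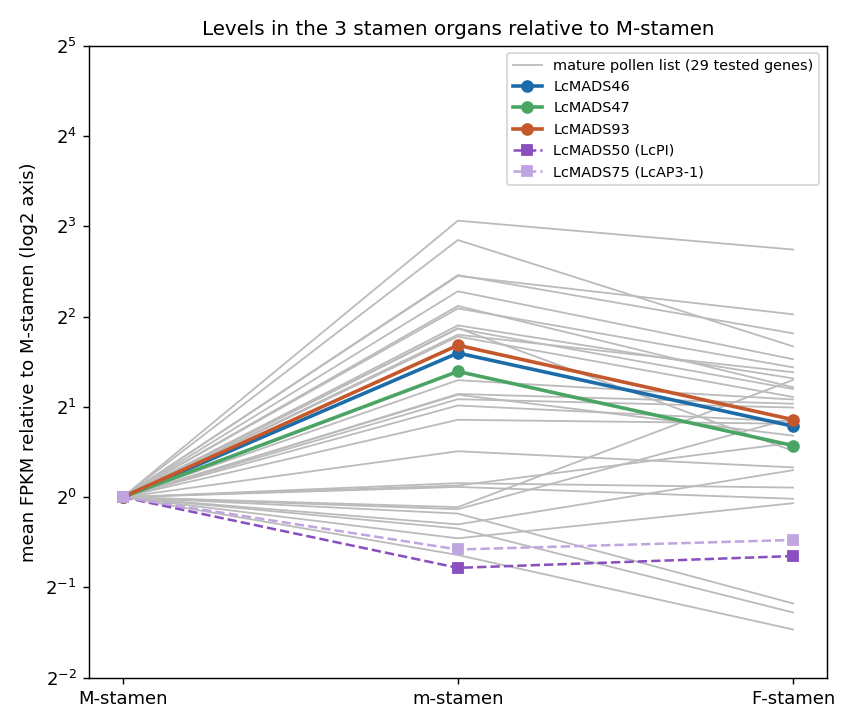
Mean FPKM in M-stamen, m-stamen and F-stamen relative to M-stamen (log2 axis) for LcMADS46, LcMADS47 and LcMADS93, for the stamen identity genes LcMADS50 (LcPI) and LcMADS75 (LcAP3-1), and in grey for the 29 tested genes of the mature pollen list. The 3 members peak in m-stamen at 2.63 to 3.21 times the M-stamen level, within the spread of the grey lines, and both identity genes lie below 1 there.

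Genes of the tapetum and pollen wall, the anther tissue and coat that form around developing pollen, gave a mixed picture. Of 27 listed and 23 tested, 3 were called lower and 2 higher in M-stamen than in m-stamen (median log2 fold change 0.01, all genes 0), where 5.57% of all genes were called lower. Against the carpel of the same flower type, 5 were called higher and 3 lower in M-stamen, and 4 higher and 8 lower in m-stamen. In F-stamen 10 were called higher and 0 lower. Of all genes, 13.5%, 21.0% and 18.9% were called higher in M-stamen, m-stamen and F-stamen than in these carpels. Shares of all genes called lower than in these carpels, or higher in M-stamen than in m-stamen, are not given here. The list's counts in those directions thus have no background to be set against. Among the 5 models annotated Callose synthase 5, known in Arabidopsis for the callose laid around microspores, the most abundant pair shared the members' order, LITCHI007453.m1 with 21.6 ± 3.21, 80.6 ± 11.9 and 42.9 ± 3.54 FPKM and LITCHI007454.m1 with 22.3 ± 0.586, 69.4 ± 6.72 and 39.0 ± 1.45 FPKM in M-stamen, m-stamen and F-stamen. LITCHI015928.m1, annotated STRICTOSIDINE SYNTHASE-LIKE 13, had 30.8 ± 0.686, 8.37 ± 0.369 and 82.1 ± 1.17 FPKM and so was highest in F-stamen. LITCHI001958.m1, annotated Type III polyketide synthase B, stayed between 25.6 and 35.4 FPKM in stamens and between 28.6 and 32.1 FPKM in carpels.

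Likeness of pattern was measured as Pearson's r of log2(CPM + 1) over the 18 libraries, which fall into few organs, so that r is a description only. The sum of LcMADS46 and LcMADS47 had r of 0.981 with LcMADS93, and 118 of 22093 other genes reached at least 0.99 with the sum. The 5 genes most like the sum were LITCHI007640.m1 (r = 0.998), which carries no annotation in the table, LITCHI024616.m1 (0.997), annotated UDP-glycosyltransferase 86A2, the Callose synthase 5 gene LITCHI007454.m1 (0.997), LITCHI017320.m1 (0.997), an uncharacterized protein, and LITCHI020439.m1 (0.996), annotated RING-H2 finger protein ATL29. Most like LcMADS93 were LITCHI014510.m1 (0.997), annotated as a translocator protein homolog, LITCHI007513.m1 (0.995), an uncharacterized protein, LITCHI004092.m1 (0.995), annotated as the pseudokinase ZED1, LITCHI001560.m1 (0.995), annotated as the cysteine protease RD21B, and LITCHI023410.m1 (0.994), annotated with a calmodulin-binding domain. LITCHI007640.m1 averaged 18.9 ± 1.98, 56.0 ± 2.82 and 28.6 ± 0.173 FPKM in M-stamen, m-stamen and F-stamen.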

How the data were processed

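RNA-seq was made from total RNA (column kit, DNase) of 18 samples and read as Illumina paired ends; whether the kit kept strand is not stated. The authors trimmed reads with Trimmomatic, removed ribosomal reads and aligned them; the submitters' processing notes name HISAT2 2.0.4 and StringTie. The deposited raw counts per gene model were used as they stand, and FPKM values were computed by the authors from uniquely mapped reads with Cufflinks. For the counting program and the genome build the answer was not given in the sources used here. Columns with the study's own false discovery rates and log2 fold changes of organ pairs were not used, and no library column was left without a sample.

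Counts were tested with edgeR 4.0.16 in R 4.3.3 (quasi-likelihood F-test, TMM factors 0.823 to 1.17, filterByExpr by organ, all 6 organs in 1 model, Benjamini-Hochberg over all 27247 genes). A gene was called when its adjusted p was under 0.01 and its log2 fold change was 1 or more in size, and the standard error was the log2 fold change over the square root of F. Summed copies replaced LcMADS46 and LcMADS47 in a refit. Shares and ratios were tested by exact permutation over libraries. The scripts were tested on simulated data. Alternatives were DESeq2 1.42.0, DESeq2's size factors in edgeR, no filter, limma 3.58.1 on log2(FPKM + 1), a replicate block, the compared organs alone, counts summed per locus, and each library left out.

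Members and lists were chosen with earlier results of these data known. Named genes were the 3 members, the 10 other listed MIKC* genes, the AGL18- or AGL29-annotated MADS genes, 3 reference genes, the 4 genes of highest mean FPKM in each of the pollen and tapetum lists, and the 5 genes most like the sum and most like LcMADS93 among those with a mean of at least 1 CPM.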

Additional observations from a re-analysis of the deposited data

Results flagged for a closer look

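The contrast of stamen and carpel differed between flower types by the interaction test itself (edgeR). For M flowers minus F flowers the log2 difference was -5.40 for LcMADS46, -2.66 for LcMADS47, -3.59 for their sum and -1.03 for LcMADS93. For M flowers minus m flowers it was -3.83 for LcMADS46, -2.66 for the sum and -1.90 for LcMADS93. The values of LcMADS46 and of the sum rest in part on the few counts in F-carpel (4 and 27) and m-carpel (24 and 95). LcMADS47 was not called for M minus m flowers, and no member was called for m minus F flowers. The LcMADS93 value for M minus F flowers was called in 5 of 12 fits with a library left out, and neither by DESeq2 nor by limma on log2(FPKM + 1).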

How the results depend on the processing

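Stamen against carpel, in each flower type and over all of them, and M-stamen against m-stamen kept 3 of 3 members called under every alternative run. In m-stamen against F-stamen, where 1 member was called, DESeq2, DESeq2's size factors, counts summed per locus and the compared organs alone called 3. Limma on log2(FPKM + 1) called 0 there. Mean FPKM in m-stamen and F-stamen was 44.9 and 25.6 for LcMADS46, 52.5 and 29.7 for LcMADS47, and 46.3 and 26.1 for LcMADS93. In M-carpel against F-carpel, where 2 were called, limma called 0 and the compared organs alone 1. The log2(FPKM + 1) scale understates changes of low values, such as those of the carpels. In m-carpel against F-carpel, where 2 were called, limma called 0, and leaving out 1 library gave 0 to 2; it was 0 without m-carpel replicate 3 or F-carpel replicate 3, and 1 without F-carpel replicate 1 or 2. In M-carpel against m-carpel, where 1 was called, limma and the compared organs alone called 0, and leaving out 1 library gave 0 to 2 (0 without M-carpel replicate 2 or m-carpel replicate 1 or 2). The difference of M and F flowers had 3 called, and 1 to 3 with a library left out; the difference of m and F flowers had 0, and 0 to 1. LcMADS46 in m-carpel against F-carpel had no value with the compared organs alone, since it was filtered out there. The causes of these changes were not tested.

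Signs turned in uncalled values only. LcMADS93 in M-carpel against m-carpel was 0.0022 with DESeq2, 0.0058 with limma and between -0.13 and 0.12 with a library left out, and LcMADS47 there was between -0.073 and 1.24. The difference of m and F flowers turned to 0.61 for LcMADS46, 0.41 for LcMADS47 and 0.31 for the sum with limma, and for LcMADS47 it ran from -1.32 to 0.22 with a library left out, 0.22 being without m-carpel replicate 3. LcMADS93 in the difference of M and F flowers fell under the fold threshold with DESeq2 (-0.97), DESeq2's size factors (-0.96) and limma (-0.89). Over all genes, limma called 4950 genes against 8066 for all stamens against all carpels and 2229 against 3461 for M-carpel against m-carpel. The LcMADS46 share and the ratio of LcMADS93 to the sum did not pass with the other unit; with a library left out, the largest difference of the log2 ratio ranged from 0.15 to 0.31, and it passed without M-stamen replicate 2 alone.

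Replicate numbers did not pair the samples: correlations of deviations ran from -0.04 to 0.04 over 45 same-numbered pairs. With the replicate number as a block, the same members were called in every comparison. The limits are the few carpel counts of LcMADS46 and LcMADS47, the reads these copies share, replicates from 1 orchard, and annotation-based lists.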
